A study of Mus musculus with 27 samples.

Results

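The genes described here are 34 enzymes, regulators and transporters of glycolysis, lactate handling and glycogen turnover, given by a list of mouse gene symbols. The list was drawn up with earlier results of these data known. All 34 were found among the 20446 genes of the count table, and all 34 had enough reads to be tested, as had 12687 genes in all. They were followed in C2C12, an established mouse myoblast line whose cells fuse into multinucleated myotubes once serum is lowered. The cells were grown in medium with 10% FBS, seeded at 50000 per well of a multiwell plate, switched near confluence to 2% horse serum, and then given a pulse of 50% horse serum for 2 h, which sets the circadian clocks of cultured cells to a common phase. RNA was collected at 9 time points, every 6 h from 12 to 60 h after the pulse, with 3 libraries at each (27 in all). Every group received the pulse and the same media, so a change with time after the pulse cannot be told apart from a change with time in differentiation medium, and no culture without the pulse was sequenced. C2C12 is a single established line without nerve or load.

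Glycolysis splits glucose into pyruvate, and lactate dehydrogenase and monocarboxylate transporters then turn pyruvate into lactate and carry it out of the cell. Skeletal muscle stores glucose as glycogen, built by glycogenin, glycogen synthase and the branching enzyme, and releases it through glycogen phosphorylase, which phosphorylase kinase switches on. Several steps have a muscle-enriched isoform beside others found more widely (Pfkm beside Pfkl and Pfkp, Pgam2 beside Pgam1, Eno3 beside Eno1 and Eno2, Pygm beside Pygb), and myoblasts are known to shift towards the muscle isoforms as they differentiate. Many glycolytic genes are also known targets of the hypoxia-inducible factors.

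Depth ranged from 15.2 to 26.6 M counted reads per library, with a median of 20.9 M. Values below are CPM, counts scaled to the library total (per M reads) after TMM scaling, unless another unit is named. No source states whether the 3 libraries of a time point were separate cultures, and the p-values therefore describe the spread between libraries, part or all of which could be technical. In RNA from whole cultures, fewer cells of a type and less RNA per cell cannot be told apart. The 10 myotube markers summed to 17685 ± 503 CPM at 12 h, 17445 ± 346 CPM at 36 h and 16711 ± 134 CPM at 60 h (SD, n = 3). Among them Myog, the myogenic factor myogenin, fell by 0.91 on the log2 scale per 48 h (SE 0.06, edgeR, adjusted p = 6.82e-11), and Myh3 and Actn2 rose. Only 2 of the 10 had a linear trend above 0, and their median was -0.19 per 48 h, against -0.01 for all genes tested. Of the markers of other cells, 5 adipocyte markers summed to at most 0.221 CPM, 3 endothelial markers to at most 0.476 CPM and 4 macrophage markers to at most 2.58 CPM. Those of 5 osteoblast markers came to between 5.41 and 16.6 CPM. The 4 neural markers summed to 141 ± 7.52, 174 ± 15.0 and 175 ± 16.9 CPM at 12, 36 and 60 h. Their sum was nearly all Tubb3, a neuronal tubulin (mean 163 CPM, called higher along the trend by 0.33), while Snap25 was at 0 in all libraries and Gfap and Rbfox3 had means of 0.117 and 0.0031 CPM. The 6 reserve cell markers summed to 432 ± 4.79, 477 ± 5.72 and 448 ± 5.05 CPM. The summed level of 6 proliferating myoblast markers was 667 ± 40.4 CPM at 12 h, 817 ± 53.8 CPM at 36 h and 756 ± 21.8 CPM at 60 h (SD, n = 3). That of 5 fibroblast markers was 149 ± 25.2, 229 ± 24.4 and 204 ± 17.7 CPM at these times. The sums for myoblasts, fibroblasts, reserve cells and neural cells were lowest at 12 h of the 3 times, as were many of the enzymes, and their part in the enzyme results was not tested.

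The most abundant members were Eno3, Aldoa, Pkm, Tpi1, Ldha and Pfkm. Per kilobase of exon, Eno3, the muscle enolase, was the most abundant member at 547 ± 57.9 RPKM (SD over the 27 libraries). Aldoa, the aldolase of muscle and most other tissues, followed at 344 ± 38.6 RPKM, and Pkm, pyruvate kinase, at 290 ± 35.0 RPKM. The ranges over libraries of Eno3 (437 to 675 RPKM) and Aldoa (268 to 415 RPKM) did not overlap, whereas those of Aldoa and Pkm (228 to 358 RPKM) did. Tpi1, which interconverts the triose phosphates, Ldha and Pfkm, the committed step of glycolysis in muscle, came next at 182, 177 and 137 RPKM, and Tpi1 and Ldha overlapped. With the length of the principal transcript in place of all exons the order of the first 3 was Aldoa (663 RPKM), Eno3 (608 RPKM) and Pkm (596 RPKM), so their order depended on the length used. At the other end, Phkg1, the catalytic subunit of muscle phosphorylase kinase (0.0438 RPKM), Aldoc, the brain aldolase (0.291 RPKM), and Fbp2, the muscle fructose bisphosphatase (0.38 RPKM), were barely detected.

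**Figure D1:**
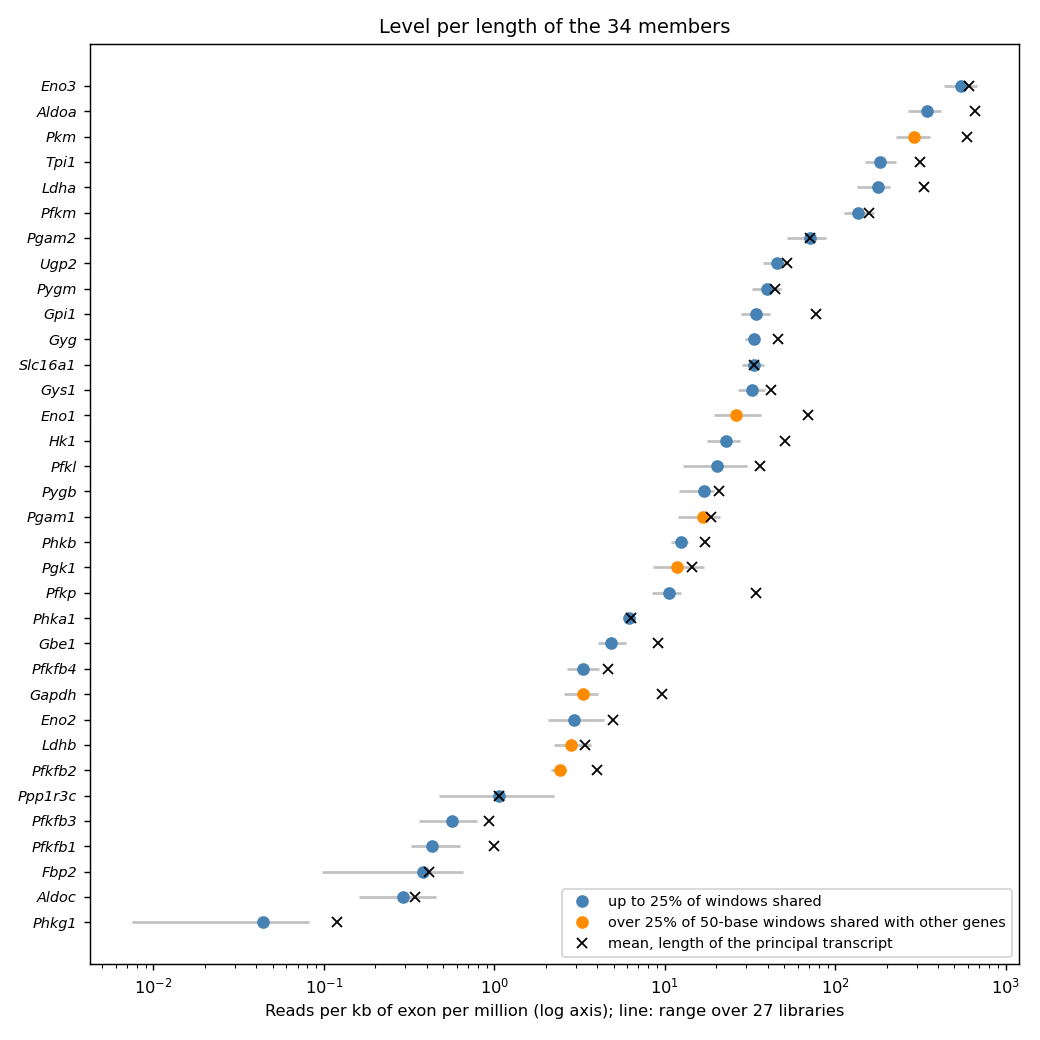
Mean level per kilobase of exon of each of the 34 members on a log axis, with a line from the lowest to the highest of the 27 libraries, and a cross for the mean computed with the length of the principal transcript. Eno3, Aldoa and Pkm lie at the top and Phkg1 at the bottom, and orange points mark the 7 members that share over 25% of their sequence windows with other genes.

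Gapdh, the glyceraldehyde phosphate dehydrogenase that is usually among the most abundant messages, had a mean of only 13.6 CPM here. Of the 50-base windows in its principal transcript, 82.5% also occur in transcripts of other genes, 218 of them. The share was 72.2% for Eno1, 68% for Pgk1, 41.5% for Pgam1, 34.4% for Pkm, 27% for Ldhb and 25.1% for Pfkfb2, and for 18 members it rounded to 0.0%. How reads with several matches were counted is not given in the sources used here, so the levels of these 7 genes, and their order against other genes, are uncertain. A fold change over time within 1 of them uses the same counting in every library, but whether reads from their copies changed with time was not tested.

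Glycolytic messages were higher at 36 and 60 h than at 12 h. The summed level of the 19 genes of the pathway from Hk1 to the lactate transporter Slc16a1 was 5350 ± 278 CPM at 12 h, 6721 ± 299 CPM at 36 h and 6695 ± 393 CPM at 60 h (SD, n = 3). In a linear trend given as log2 change per 48 h, fitted beside a 24 h wave, 14 of the 34 members rose and 0 fell at an adjusted p under 0.05 (edgeR's quasi-likelihood test, Benjamini-Hochberg over 12687 genes). Over all genes tested, 10.7% rose and 8.69% fell. Without the 12 h libraries 8 members rose, and with each time point taken as 1 mean value (limma) 5 did. The median trend of the members was 0.22, with 29 of 34 above 0, against -0.01 for all genes tested. The calls fell on 5 of 8 genes of upper glycolysis, 4 of 8 of lower glycolysis, 1 of 3 for lactate, 1 of 5 that set fructose bisphosphate, both phosphorylases, and Ppp1r3c. None of the 4 genes of glycogen synthesis or the 3 of phosphorylase kinase passed. Between 36 and 12 h, 14 members were higher and 0 lower (9.27% and 6.72% of all genes tested), whereas between 60 and 36 h only Pfkp was called, higher by 0.29 ± 0.06 (SE) on the log2 scale with an adjusted p of 0.018 (0.875% of all genes tested were called, 0.504% higher and 0.37% lower). That call was lost on leaving out 4 of the 6 libraries in turn (adjusted p up to 0.0755) and without the libraries numbered 2 (adjusted p = 0.149). The comparison of 60 h with 12 h called 13 higher and 1 lower (9.48% and 6.54% of all genes), and 13 members changed in some shape over the 9 time points (18.4% of all genes). In 18 members the 3 libraries at 60 h all lay above the 3 at 12 h, and in none did they all lie below (16.7% of all genes tested were so separated upwards and 15.5% downwards). The lowest mean of 12 of the 14 rising members was at 12 or 18 h, in 5 of them at 12 h. Their selection for a rise makes an early low likely, so this only describes their shape.

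**Figure D2:**
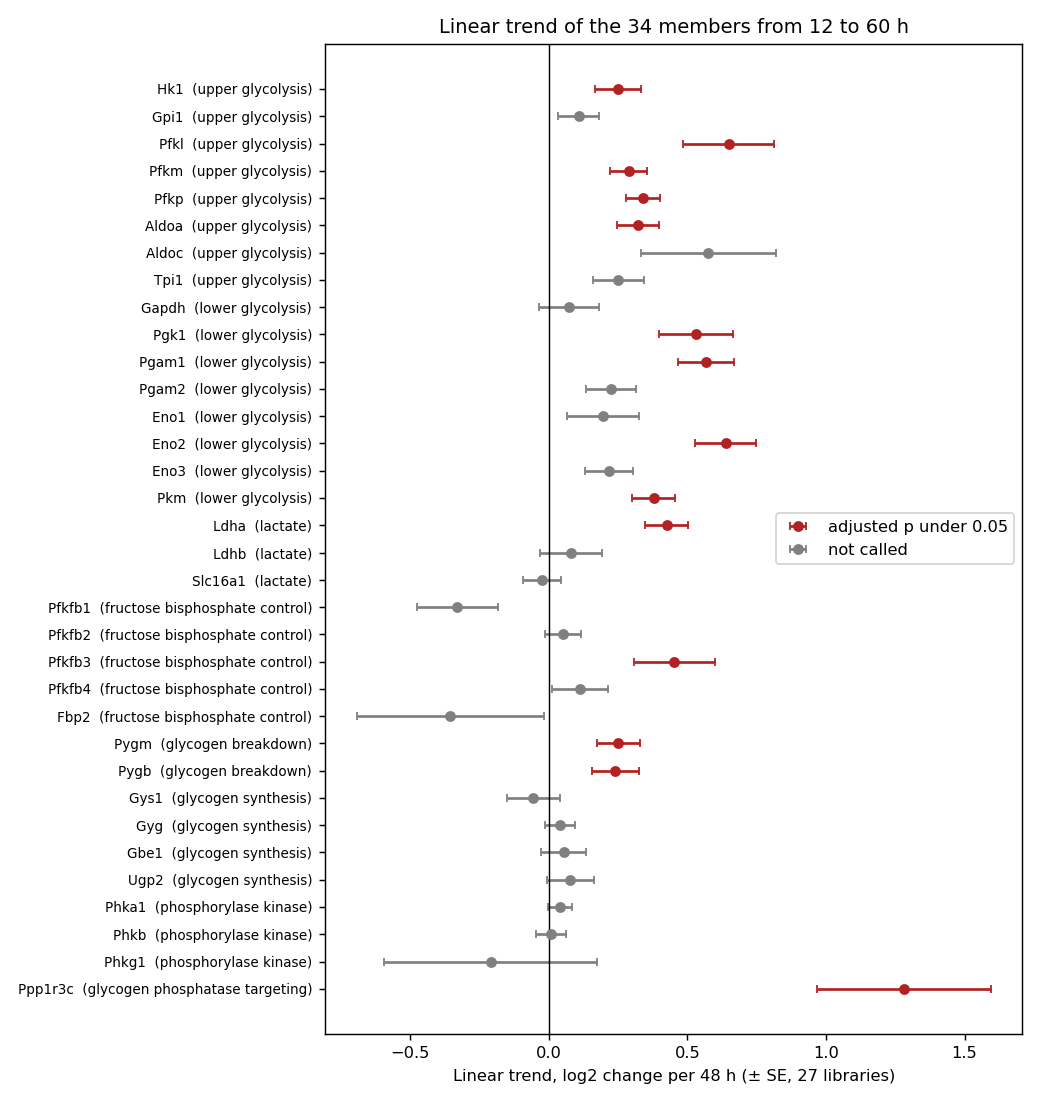
Linear trend of each member as log2 change per 48 h with its standard error, grouped by role, over 27 libraries. The 14 members in red passed an adjusted p of 0.05, all of them above 0, from 0.24 in Pygb to 1.28 in Ppp1r3c.

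In upper glycolysis the trend was steepest in Pfkl, the liver-type subunit of phosphofructokinase (ENSMUSG00000020277). Its level was 94.1, 109 and 99 CPM at 12 h, 156, 202 and 175 CPM at 36 h, and 182, 182 and 149 CPM at 60 h. Every library at 36 and 60 h lay above all 3 at 12 h. The trend was 0.65 ± 0.16 (SE) with an adjusted p of 0.00549. It stood at 0.51 without the 12 h libraries and then missed the threshold (adjusted p = 0.151). Pfkm, the muscle subunit, had 392, 433 and 395 CPM at 12 h and 476, 504 and 474 CPM at 60 h, again without overlap, and rose by 0.29 ± 0.07 (adjusted p = 0.00266). Pfkp, the platelet-type subunit, had 132, 141 and 135 CPM at 12 h, dipped to 112, 126 and 118 CPM at 24 h, below every 12 h library, and stood at 131, 136 and 132 CPM at 36 h. It then reached 157, 168 and 162 CPM at 60 h. Its trend was 0.34 ± 0.06 (adjusted p = 0.000162). Aldoa went from 937, 898 and 870 CPM at 12 h to 1159, 1208 and 1038 CPM at 60 h, a trend of 0.32 ± 0.08 (adjusted p = 0.00315), with its lowest mean at 18 h. That trend was no longer called without the 12 h libraries.

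Hexokinase 1, which traps glucose as glucose 6-phosphate, gained most of its rise before 24 h. Hk1 had 158, 150 and 170 CPM at 12 h, 203, 191 and 210 CPM at 24 h, and 219, 202 and 217 CPM at 60 h. The trend of 0.25 ± 0.08 (adjusted p = 0.0335) was 0.09 without the 12 h libraries (adjusted p = 0.679), and the call was lost on leaving out any of 9 of the 27 libraries. The triose phosphate isomerase Tpi1 had 445, 482 and 415 CPM at 12 h and 580, 626 and 532 CPM at 60 h, which did not overlap. It was called between those times (0.37 ± 0.11, adjusted p = 0.0237) but not along the trend (adjusted p = 0.0562), which passed with DESeq2. The call between the ends was lost on leaving out 4 of the 6 libraries in turn (adjusted p up to 0.0992). Gpi1, the phosphoglucose isomerase, had a trend of 0.11 ± 0.07 (adjusted p = 0.354), and was called only between 12 h (199, 180 and 216 CPM) and 36 h (213, 237 and 267 CPM), times whose libraries overlapped. That call was lost on leaving out 4 of the 6 libraries in turn and without the libraries numbered 2 (adjusted p = 0.24). Aldoc was near its detection limit at 0.523 to 0.702 CPM at 12 h and 0.906 to 1.28 CPM at 60 h, and its trend did not pass (adjusted p = 0.1). It was called at 36 h against 12 h, higher by 0.94 ± 0.32 (adjusted p = 0.0479), a call lost with DESeq2 (adjusted p = 0.0567) and on leaving out 5 of the 6 libraries in turn.

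In lower glycolysis Pgk1, Pgam1, Eno2 and Pkm rose along the trend. Pgam1, the widely expressed phosphoglycerate mutase (ENSMUSG00000011752), had 23.7, 26.1 and 26.5 CPM at 12 h, 37.8, 37.8 and 38.9 CPM at 36 h, and 39.8, 39.6 and 33.7 CPM at 60 h. Both later times lay wholly above the first. The trend was 0.57 ± 0.10 with an adjusted p of 0.000159. Eno2, the enolase best known from neurons, had 9.86, 10.1 and 12.6 CPM at 12 h and 20.7, 18.9 and 16.5 CPM at 60 h. It rose by 0.64 ± 0.11 (adjusted p = 0.000111), although its level per length stayed far below that of the other enolases. Pgk1, the phosphoglycerate kinase that makes the first ATP of the pathway, had 22.7, 25.9 and 20.6 CPM at 12 h and 31.4, 31.9 and 26.4 CPM at 60 h. Its libraries at those times did not overlap, but the range of those at 54 h (22.6, 37.9 and 21.1 CPM) overlapped with both. The trend was 0.53 ± 0.13 (adjusted p = 0.00514).

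Pkm, which makes pyruvate and the last ATP, rose from 1258, 1319 and 1162 CPM at 12 h to 1609, 1714 and 1521 CPM at 36 h and stood at 1625, 1725 and 1481 CPM at 60 h. The trend was 0.38 ± 0.08 (adjusted p = 0.000754), and both later times were above every 12 h library. Counts per gene do not separate the M1 and M2 splice forms. The muscle mutase Pgam2 had 56.3, 56.6 and 52.5 CPM at 12 h and 60, 65.6 and 59.8 CPM at 60 h, and its trend of 0.22 ± 0.09 missed the threshold (adjusted p = 0.0842). Eno3 had 863, 924 and 760 CPM at 12 h and 961, 1045 and 905 CPM at 60 h, which overlapped, and a trend of 0.22 ± 0.09 (adjusted p = 0.0834). Eno1 had a trend of 0.19 ± 0.13 (adjusted p = 0.329), with 155, 141 and 106 CPM at 12 h and 181, 142 and 153 CPM at 60 h. Gapdh was called only at 36 h against 12 h (0.40 on the log2 scale, adjusted p = 0.0185), when it had 16, 15.8 and 16.8 CPM against 12.4, 11.5 and 13 CPM, and its trend was 0.07 ± 0.11. The 36 h call was lost on leaving out 3 of the 6 libraries in turn (adjusted p up to 0.0883) and without the libraries numbered 2.

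Ldha, the lactate dehydrogenase subunit that predominates in fast muscle (ENSMUSG00000063229), had 495, 530 and 456 CPM at 12 h, 668, 685 and 642 CPM at 36 h, and 657, 684 and 629 CPM at 60 h. All 6 later libraries were above all 3 at 12 h. The trend was 0.42 ± 0.08 with an adjusted p of 0.000217. Ldhb, the heart-type subunit, was low at 3.94, 4.44 and 4.31 CPM at 12 h and 4.72, 5.21 and 4.01 CPM at 60 h, and its trend of 0.08 ± 0.11 was not called. Slc16a1, the monocarboxylate transporter MCT1, had a trend of -0.02 ± 0.07.

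**Figure D3:**
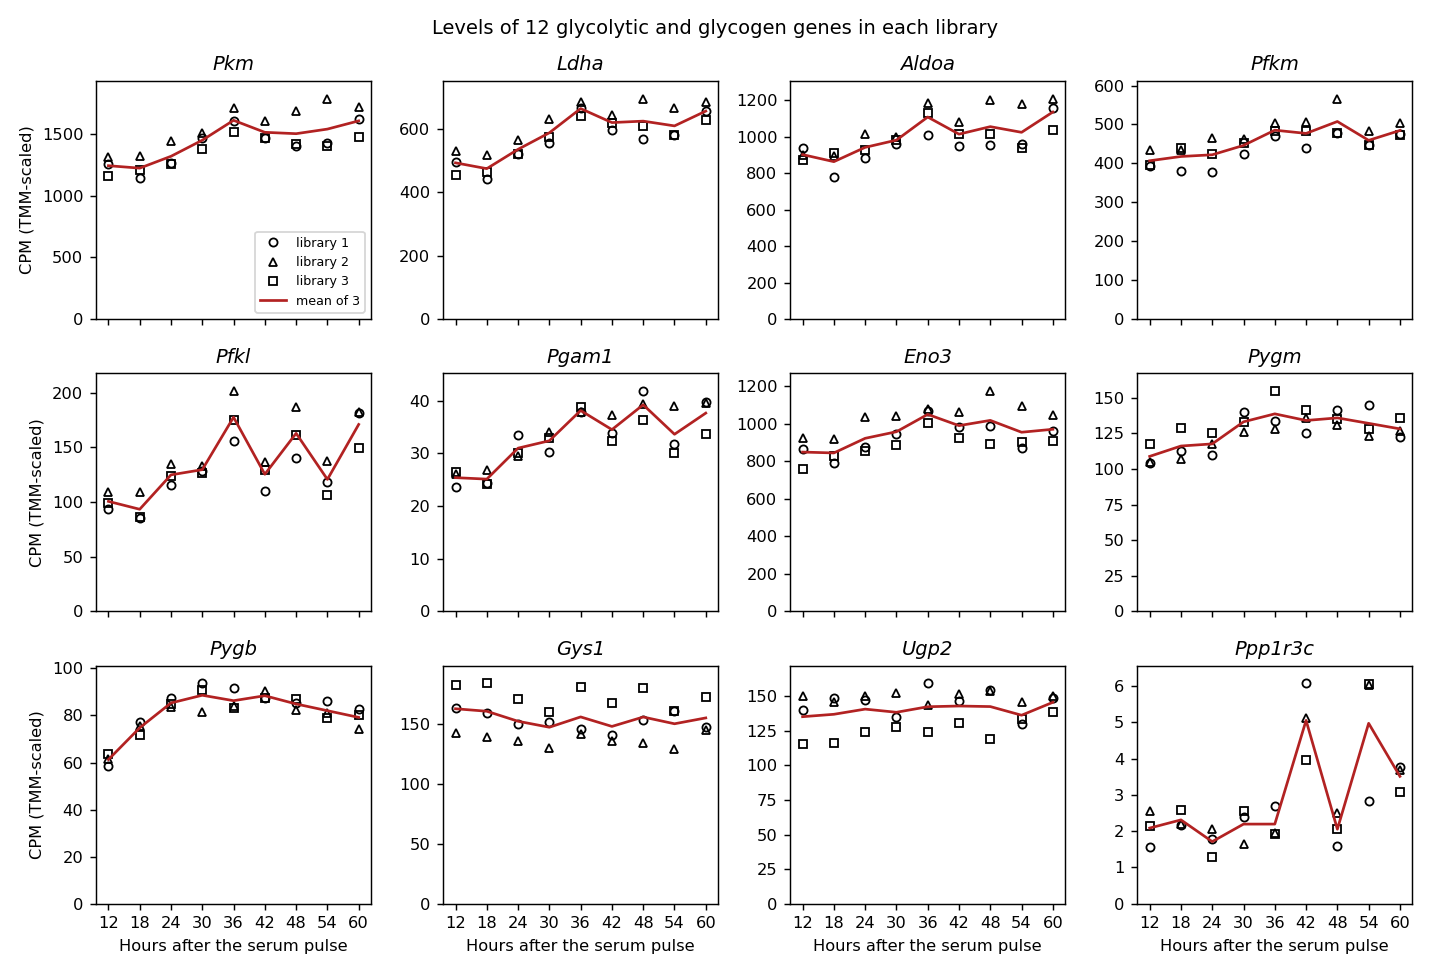
CPM of 12 members in each library against hours after the serum pulse, with symbols for library number and a line through the mean of the 3 libraries, and a vertical axis from 0 in every panel. Pkm, Ldha, Pfkl and Pgam1 step up by 36 h, Gys1 and Ugp2 show no such step, Ppp1r3c peaks at 42 and 54 h, and library 2 (triangles) is often the highest.

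A pattern by library number was seen in the set, and it was not particular to these genes. Over all genes tested, deviations from the time point mean correlated best with the same number in 26 of 27 libraries. At each time point the libraries are numbered 1 to 3, and library 2 was the highest of the 3 at 9 of 9 time points for Pfkl, Tpi1, Eno3, Pkm, Ldha and Gbe1, and at 7 or more for 14 members. Library 3 was highest at 7 or more for 3 members (8 time points each for Hk1, Gpi1 and Gys1). Library 3 was the lowest at 7 or more for 7 members, and libraries 1 and 2 for 2 members each. For Gys1, library 2 was the lowest at all 9. Such counts were not made over all genes. Without the 9 libraries numbered 2, 10 of the 14 trend calls remained (all but Hk1, Pfkfb3, Pygm and Pygb). What the shared number stands for is not stated in the labels.

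Among the enzymes that make and remove fructose 2,6-bisphosphate, the activator of phosphofructokinase, Pfkfb3 rose. This kinase-dominant form had 3.12, 3.15 and 2.74 CPM at 12 h, 3.96, 3.86 and 4.2 CPM at 36 h, and 4.72, 4.85 and 3.96 CPM at 60 h. All values at 36 and 60 h lay above those at 12 h. Its trend was 0.45 ± 0.15 (adjusted p = 0.0274), and 0.32 without the 12 h libraries (adjusted p = 0.358), and leaving out any of 5 of the 27 libraries lost the call. Pfkfb1, the form of liver and muscle, was the only member called lower, at 1.52, 2.22 and 2.53 CPM at 12 h and 1.34, 1.4 and 1.6 CPM at 60 h. The change was -0.52 ± 0.17 on the log2 scale with an adjusted p of 0.0441. These groups overlapped, the call was lost on leaving out 5 of the 6 libraries in turn, and the adjusted p was 0.13 with DESeq2. Pfkfb2, the heart form, and Pfkfb4 had trends of 0.05 ± 0.07 and 0.11 ± 0.10. Fbp2, which runs the phosphofructokinase step in reverse, stood at 0.468, 0.69 and 0.958 CPM at 12 h and 0.143, 0.681 and 0.401 CPM at 60 h, a trend of -0.36 ± 0.34.

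On the glycogen side, both phosphorylases rose and none of the 4 synthetic enzymes was called along the trend. The muscle phosphorylase Pygm had 104, 105 and 118 CPM at 12 h, 134, 128 and 155 CPM at 36 h, and 122, 127 and 136 CPM at 60 h. Pygb, the brain phosphorylase, had 58.4, 61.6 and 63.7 CPM at 12 h, 87.6, 83.5 and 84.9 CPM at 24 h, and 82.8, 74.4 and 80.3 CPM at 60 h. In both genes the later libraries given here were all above those at 12 h. Those of Pygm at 18 and 24 h overlapped with 12 h. The trends were 0.25 ± 0.08 for Pygm (adjusted p = 0.0215) and 0.24 ± 0.09 for Pygb (adjusted p = 0.0479). The mean of Pygb went from 61.3 CPM at 12 h to 85.3 CPM at 24 h, whereas that of Pygm was 109 CPM at 12 h, 118 CPM at 24 h and 139 CPM at 36 h. Without the 12 h libraries the trends were 0.14 (adjusted p = 0.421) and 0.003 (adjusted p = 0.993), and leaving out 1 library lost the call for Pygb with any of 20 of the 27 and that for Pygm with either of 2 (12 h, libraries 1 and 2). Pygb at 36 h was nonetheless 0.49 log2 units above 12 h with an adjusted p of 3.42e-06.

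Gys1, muscle glycogen synthase, had 164, 143 and 183 CPM at 12 h and 148, 145 and 173 CPM at 60 h, a trend of -0.06 ± 0.10. The trends of Ugp2, which makes UDP-glucose, Gyg, the glycogenin primer, and Gbe1, the branching enzyme, were 0.08 ± 0.08, 0.04 ± 0.05 and 0.05 ± 0.08. The phosphorylase kinase subunits Phka1 and Phkb had trends of 0.04 ± 0.04 and 0.01 ± 0.05. Phka1 was the steadiest member, with a coefficient of variation of 3.56% over the 27 libraries. Phkg1 had at most 0.529 CPM in any library, too little for its trend of -0.21 ± 0.38 to be read.

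Ppp1r3c, which encodes the protein targeting to glycogen that brings protein phosphatase 1 to glycogen particles (ENSMUSG00000067279), had the steepest trend and a course of its own. It had 1.56, 2.56 and 2.13 CPM at 12 h and stayed between 1.29 and 2.7 CPM in every library to 36 h. It then reached 6.07, 5.13 and 3.95 CPM at 42 h, returned to 1.6, 2.49 and 2.07 CPM at 48 h, reached 2.82, 6.03 and 6.06 CPM at 54 h, and had 3.77, 3.69 and 3.07 CPM at 60 h. The libraries at 42 and 48 h did not overlap, and at 54 h library 1 lay well below the other two. The trend was 1.28 ± 0.31 with an adjusted p of 0.00415.

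The isoform of muscle exceeded its counterpart throughout in all 7 pairs compared, although Aldoa is also the aldolase of most other tissues. The ratios of Pfkm to Pfkl and of Pgam2 to Pgam1 moved towards the wider isoform, and that of Ldha to Ldhb towards the muscle isoform. As a ratio of RPKM, the mean of Pfkm over Pfkl was 6.8, Pfkm over Pfkp 12.8, Pgam2 over Pgam1 4.28, Eno3 over Eno1 21, Pygm over Pygb 2.34, Ldha over Ldhb 62.6 and Aldoa over Aldoc 1185. With principal transcript lengths the ratios of Pfkm over Pfkp and Eno3 over Eno1 were 4.61 and 8.8. Each ratio was then followed within libraries as log2 of the CPM ratio, with 14 permutation tests in all (7 slopes and 7 alternations, two-sided, 100000 resamples, adjusted over the 14). The log2 ratio of Pgam2 to Pgam1 was 1.12 ± 0.13 at 12 h and 0.71 ± 0.12 at 60 h (SD), with a slope per 48 h of -0.33 ± 0.10 (SE, permutation test, adjusted p = 0.0193). That of Pfkm to Pfkl was 2.01 ± 0.04 at 12 h and 1.51 ± 0.14 at 60 h, with a slope of -0.37 ± 0.13 (permutation test, adjusted p = 0.0265). In both pairs the 12 h and 60 h libraries did not overlap. That of Ldha to Ldhb moved the other way, from 6.83 ± 0.13 to 7.12 ± 0.13, with a slope of 0.33 ± 0.10 (permutation test, adjusted p = 0.0193).

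The slopes of the other 4 ratios did not pass: -0.06 ± 0.07 for Pfkm to Pfkp, -0.15 ± 0.19 for Aldoa to Aldoc, 0.01 ± 0.12 for Eno3 to Eno1, and 0.01 ± 0.08 for Pygm to Pygb, all with SE and an adjusted permutation p of 0.56 or 0.926. The 3 slopes that passed missed the threshold without the 12 h libraries (adjusted p = 0.093 for each, by permutation) and when each time point was taken as 1 value. The slope of Pfkm to Pfkl also missed it on leaving out any of 5 of the 27 libraries (adjusted permutation p up to 0.0771), and that of Pgam2 to Pgam1 without library 1 of 12 h (adjusted permutation p = 0.0523). The ratios to Pgam1, Eno1 and Ldhb carry the uncertainty of those genes' copies.

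**Figure D4:**
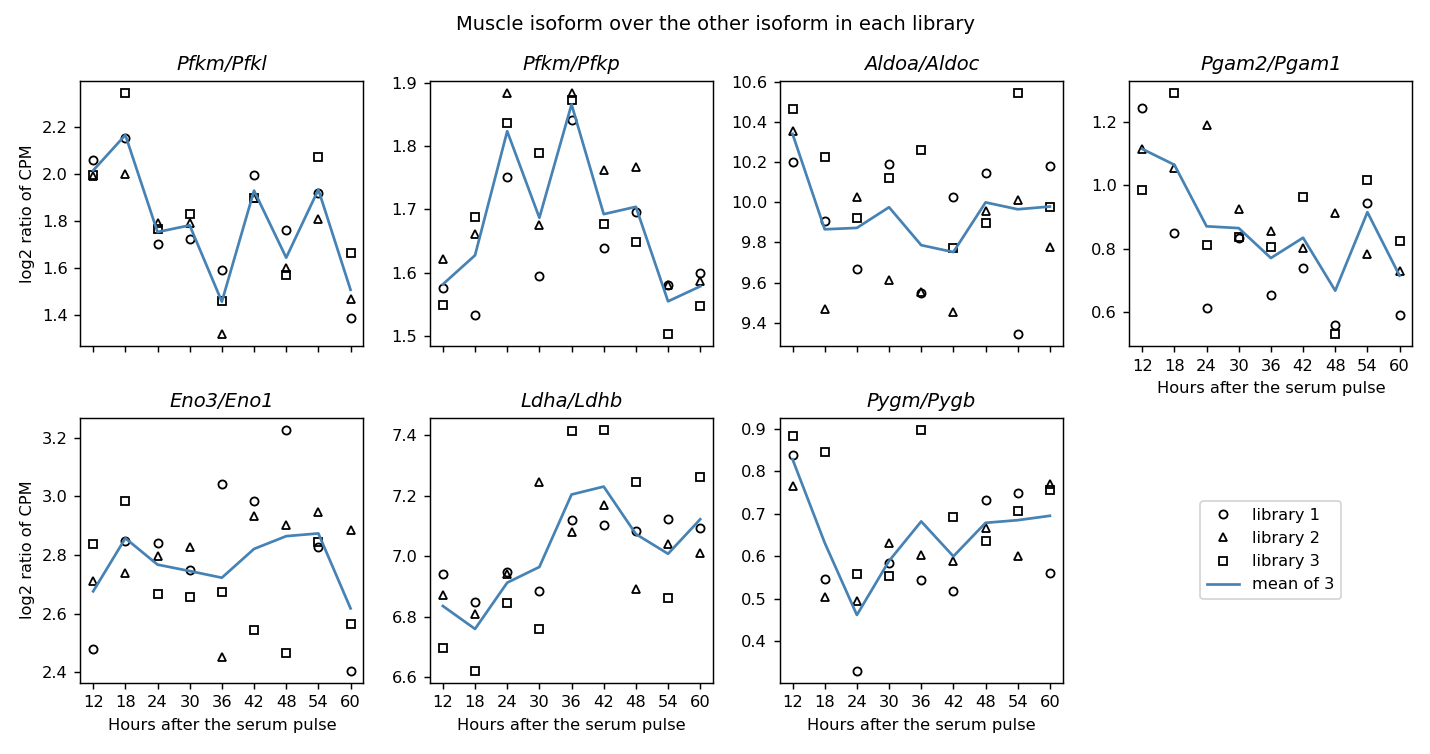
Log2 ratio of CPM of the muscle isoform to the other isoform in each library against hours after the pulse, for 7 pairs, with a line through the mean of the 3 libraries; each panel has its own vertical scale. Pfkm/Pfkl and Pgam2/Pgam1 go down from 12 to 60 h, Ldha/Ldhb goes up, and Pfkm/Pfkl also zigzags from 30 h on.

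Successive collections were also tested for alternation. The test compared the level at 12, 24, 36, 48 and 60 h with that at 18, 30, 42 and 54 h beside the trend and the 24 h wave. Of the 34 members, 1 was called, Ppp1r3c, lower at the first set of times by -0.69 ± 0.15 on the log2 scale (edgeR, adjusted p = 0.0215), while 0.772% of all genes tested were called, 0.229% higher and 0.544% lower. Ppp1r3c missed the threshold without library 1 of 42 h, library 1 of 48 h or library 3 of 54 h (adjusted p up to 0.0565) and without the libraries numbered 2 (adjusted p = 0.0669). Pfkl went the opposite way. Its mean was 178 CPM at 36 h, 125 CPM at 42 h, 163 CPM at 48 h, 121 CPM at 54 h and 171 CPM at 60 h, and the libraries of each of these times lay apart from those of the next. Its alternation was 0.31 ± 0.08 with an adjusted p of 0.104 (edgeR), and it passed with DESeq2 and in the fit without the 12 h libraries. The ratio of Pfkm to Pfkl, which needs no scaling between libraries, alternated by -0.28 ± 0.08 (permutation test, adjusted p = 0.0193), and the other 6 ratios did not pass. This call was lost without the libraries numbered 2 (adjusted p = 0.0617) and with each time point as 1 value (adjusted p = 0.374), both by permutation.

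Of the 19 genes from Hk1 to Slc16a1, 17 had an alternation above 0, with a median of 0.05 against -0.002 for all genes tested, and 0 were called (4 at an unadjusted p under 0.05, and 1, Pfkl, with DESeq2). In a list of known hypoxia targets outside glycolysis, 20 of 20 tested genes were above 0 with a median of 0.17, and 6 were called: Bnip3 (0.48 ± 0.08), a mitophagy receptor, Ankrd37 (0.62 ± 0.13), Egln3 (0.19 ± 0.03), an oxygen-sensing prolyl hydroxylase, Pdk1 (0.32 ± 0.08), the kinase that shuts pyruvate dehydrogenase, Ndrg1 and Narf. That list was drawn up with the alternation of these genes known, so its count is a description. The difference between the lists was not tested. No member passed the test for a 24 h wave (0.0552% of all genes did), and 2, Pfkfb3 and Pygb, had an unadjusted p under 0.05 (edgeR); with DESeq2 the count was also 0. The fitted swings of Pfkfb3 and Pygb from trough to peak were 0.38 and 0.19 on the log2 scale. The share of all genes with an unadjusted p under 0.05 was not counted for the wave or the alternation. The unadjusted counts are therefore descriptions only.

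**Figure D5:**
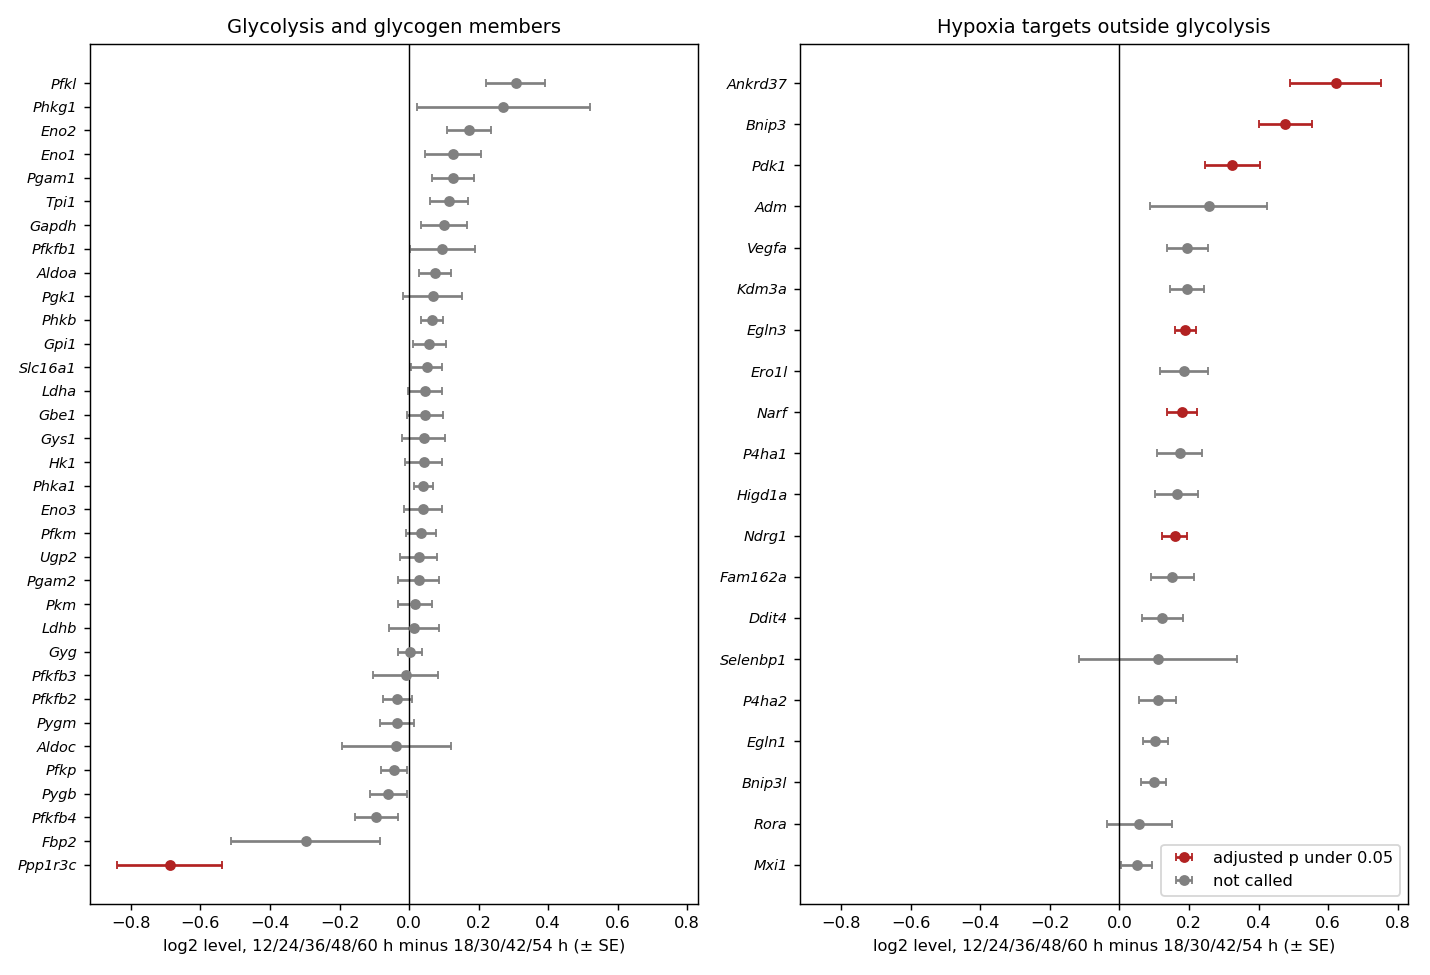
Alternation of each member (left) and of 20 hypoxia targets outside glycolysis (right) as the log2 level at 12, 24, 36, 48 and 60 h minus that at 18, 30, 42 and 54 h, with its standard error. All 20 hypoxia targets lie above 0 and 6 are called (red), whereas 25 of 34 members lie above 0 and only Ppp1r3c is called, below 0.

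The neighbouring steps of the pathway were read from lists of 31 and 22 genes, drawn up with earlier results known. Of 21 tested genes of hexose and pyruvate metabolism, 5 rose along the trend and 0 fell, with a median of 0.12. Over all genes tested, 10.7% rose and 8.69% fell. The lactate exporter Slc16a3 (MCT4) rose by 1.20 ± 0.22 (adjusted p = 0.000291), Pdk1 by 0.63 ± 0.16 (adjusted p = 0.00577), and the pyruvate dehydrogenase phosphatase Pdp2 by 0.62 ± 0.15 (adjusted p = 0.004). The subunits of pyruvate dehydrogenase itself were not called, with trends of -0.12 ± 0.06 for Pdha1, -0.13 ± 0.09 for Pdhb and -0.07 ± 0.08 for Dlat. Of 18 tested glycogen genes, 3 rose and 2 fell, beside the same 10.7% and 8.69% of all genes tested. Ppp1r3a, the muscle glycogen-targeting subunit of protein phosphatase 1, rose by 0.60 ± 0.10 (adjusted p = 4.82e-05) and Pgm1, phosphoglucomutase, by 0.27 ± 0.07 (adjusted p = 0.00913). Phka2, the liver-type phosphorylase kinase subunit, changed by -0.32 ± 0.06 (adjusted p = 0.000312) and Pgm2l1 by -0.48 ± 0.13 (adjusted p = 0.00637).

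The promoters of the members were read for the short motifs that hypoxia-inducible and clock factors are known to bind, since both rising groups and alternating genes were seen. RefSeq windows (build GRCm38.p6) covering the 250 bases before a start site were found for all 34 members, 52 windows in all. ACGTG, the core of the hypoxia response element, was searched on both strands. Its variant GCGTG was searched in the same way. So was the E-box, CACGTG, which contains the core on both strands. ACGTG occurred in 14 of 34 members, against 18.5% of all 27025 genes with a window. It occurred in 10 of the 14 rising members and in 4 of the 20 others, while GCGTG occurred in 10 and 13 of them. CACGTG was found in 4 of the rising members and 3 of the others. By window the share with ACGTG was 34.6% for the members and 16.6% for all. ACGTG was in 13 of 23 windows of rising members and in 5 of 29 windows of the others. GCGTG occurred in 23 members (30.9% of all genes) and CACGTG in 7 (6.9%). Members' windows had a median GC content of 58.8%, against 52.4% for all windows. The median was 60.4% for windows of rising members and 55.6% for windows of the others, and the part of GC content in these counts was not tested.

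Stretches of 150 bases upstream of the start site are shown for 6 members, picked after their values were seen: the rising Ldha, Pgk1 and Pgam1, the muscle isoform Pgam2 beside Pgam1, and Pfkl and Ppp1r3c, whose alternations have opposite signs. They are written 5′ to 3′ on the gene's strand in lower case, with capitals marking the motifs searched and their reverse complements.
Ldha (chr7:46845649-46845798, plus strand): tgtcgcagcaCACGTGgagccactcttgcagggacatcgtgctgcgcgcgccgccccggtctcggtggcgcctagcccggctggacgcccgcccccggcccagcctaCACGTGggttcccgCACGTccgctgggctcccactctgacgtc
Pgk1 (chrX:106186940-106187089, plus strand): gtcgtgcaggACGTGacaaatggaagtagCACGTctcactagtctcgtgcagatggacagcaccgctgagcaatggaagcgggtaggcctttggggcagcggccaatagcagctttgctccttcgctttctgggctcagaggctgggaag
Pgam1 (chr19:41911686-41911835, plus strand): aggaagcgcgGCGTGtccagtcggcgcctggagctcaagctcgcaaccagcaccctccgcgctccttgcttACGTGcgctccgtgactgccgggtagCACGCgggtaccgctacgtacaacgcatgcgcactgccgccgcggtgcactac
Pgam2 (chr11:5803797-5803946, minus strand): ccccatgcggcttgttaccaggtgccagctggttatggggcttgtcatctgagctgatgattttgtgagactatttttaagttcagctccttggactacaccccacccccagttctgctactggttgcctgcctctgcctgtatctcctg
Pfkl (chr10:78009808-78009957, minus strand): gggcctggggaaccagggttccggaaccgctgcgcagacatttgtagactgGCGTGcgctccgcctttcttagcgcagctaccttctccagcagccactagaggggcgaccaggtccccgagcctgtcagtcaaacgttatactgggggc
Ppp1r3c (chr19:36736686-36736835, minus strand): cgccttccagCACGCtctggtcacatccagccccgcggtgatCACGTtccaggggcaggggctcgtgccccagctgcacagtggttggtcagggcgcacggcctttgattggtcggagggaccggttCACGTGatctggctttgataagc
In the stretch of Ldha (from 155 to 6 bases before the start) the E-box CACGTG occurs 2 times, beside a further core on the opposite strand. Pgk1 holds the core ACGTG on both strands and Pgam1 holds that core and its variant, the latter on both strands, whereas the stretch of Pgam2 holds none of the motifs. The stretch of Pfkl has the variant GCGTG alone, and that of Ppp1r3c has 1 E-box, a further core and 1 copy of the variant, the last pair on the opposite strand. The stretches of Ldha and Pfkl lie inside the extent of longer GENCODE transcripts of the same gene, outside their exons. A match is a description of the sequence, and no binding was measured here.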

How the data were processed

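RNA of C2C12 myotubes was depleted of ribosomal RNA and sequenced in stranded libraries. The values the authors deposited are unnormalized counts, whole numbers of reads for each of 20446 genes and 27 libraries. The submitters' processing notes name mm10 as the genome, Trim Galore 0.4.0 with cutadapt 1.9.1 for trimming, and featureCounts for counting. Which aligner, gene annotation and counting options they used is not given in the sources used here. Symbols, exon lengths and positions came from GENCODE M21.

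Libraries were grouped by the time point in their titles. Genes passing edgeR's filterByExpr (minimum count 10) were scaled by TMM (factors 0.979 to 1.03) and tested in edgeR 4.0.16 (R 4.3.3) with quasi-likelihood F tests, Benjamini-Hochberg adjusted over all 12687 genes at 0.05. The trend and the 24 h wave shared 1 model, the alternation was added to it, and time points were compared with time as a factor. The biological coefficient of variation was 11.8%. Log ratios of isoforms used a prior count of 2. RPKM was computed from counts and exon length. Any 2 libraries from the same time differed beyond sampling noise (chi-square of at least 5.66 per degree of freedom), and each was counted as a replicate. Scripts were tested on simulated counts. DESeq2 1.42.0, limma 3.58.1, other scaling and filters, a replicate block, fits without 12 h and each library left out served as alternatives. The members, lists and tests were chosen with earlier results of these data known. The comparisons of 36 h with the ends, and the fits without the libraries numbered 2, were added after the data were seen. All 34 members are accounted for, with library values for those called and for the isoform pairs, and up to 4 genes per test were named from each other list by their p. Narf and Pdk1 in the alternation, Pdha1, Pdhb, Dlat and the marker genes were named after their values were seen.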

Additional observations from a re-analysis of the deposited data

How the results depend on the processing

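Median of ratios scaling and a filter at a mean of 1 CPM kept all 14 trend calls among the members, DESeq2 kept 14 and added Tpi1, and no filter kept 13. Pgk1, Pgam1, Eno2, Pkm and Ldha were called in the trend under every alternative run. Depth, the 3 libraries per time point and the unknown handling of reads from gene copies limit what small changes and the low members (Phkg1, Fbp2, Aldoc) can show. The cause of each difference below was not tested. The libraries of a number were not paired by the labels: correlations of deviations from the time point mean ran from -0.06 to 0.69 for the same number (median 0.33, 91 of 108 pairs over 0.1) and had a median of -0.19 for different numbers, and 26 of 27 libraries correlated best with their own number, which is a hint from the data. With the replicate block, the genes called numbered 5166 in place of 2338 for any change, 2032 up and 1716 down in place of 1203 and 830 for 60 h against 12 h, 2005 and 1797 in place of 1176 and 853 for 36 h against 12 h, 211 and 203 in place of 64 and 47 for 60 h against 36 h, 1861 down in place of 1103 for the trend, and 113 and 269 in place of 29 and 69 for the alternation, where 1 member was then called up (Pfkl). The block kept all 14 trend calls and added Pgam2, Tpi1 and Eno3 (17). Without the 12 h libraries, any change was called in 1189 genes and 6 members, the trend in 692 genes up, 489 down and 8 members up in place of 14, and the alternation in 78 genes and 1 member (Pfkl) up. With time point means in limma, the trend was called in 636 genes up, 346 down and 5 members up, and the wave and the alternation in 0 genes, 0 members down and 0 hypoxia targets. DESeq2 called 101 genes up and 83 down between 60 and 36 h, 11 with a wave in place of 7, and 57 up, 109 down and 1 member up (Pfkl) in the alternation. DESeq2 and the fit without a filter called 0 members lower at 60 h than at 12 h. Without the libraries numbered 2, any change was called in 1500 genes, 0 members were lower at 60 h, 9 members were higher at 36 h than at 12 h, 23 genes and 0 members rose and 10 genes fell from 36 to 60 h, and the alternation was called in 4 genes up, 23 down, 0 members down and 1 hypoxia target up. The slopes of the isoform ratios without the 12 h libraries, without the libraries numbered 2 and with time point means were -0.35, -0.36 and -0.37 for Pfkm to Pfkl (adjusted permutation p = 0.093, 0.2 and 0.374), -0.26, -0.29 and -0.33 for Pgam2 to Pgam1 (0.093, 0.2 and 0.233) and 0.32, 0.43 and 0.33 for Ldha to Ldhb (0.093, 0.0617 and 0.266), and the alternation of Pfkm to Pfkl was -0.30 and -0.28 for the last of these settings (0.0617 and 0.374). Slopes that were not called changed sign: Aldoa to Aldoc was 0.12 without 12 h, Eno3 to Eno1 was -0.065 without 12 h and -0.092 without the libraries numbered 2, and Pygm to Pygb was -0.026 without the latter. Leaving out 1 library at a time, Eno3 to Eno1 ran from -0.047 to 0.087 and Pygm to Pygb from -0.020 to 0.058, and Pfkm to Pfkl (-0.43 to -0.31) and Pgam2 to Pgam1 (-0.37 to -0.29) each kept their direction. Leaving out each library gave 10 to 16 members called up in the trend, 8 to 12 up and 0 to 1 down for 60 h against 12 h, 8 to 12 up and 0 to 1 down for 36 h against 12 h, 0 to 1 up, 33 to 48 genes up and 14 to 27 down for 60 h against 36 h, and 15 to 40 genes up, 42 to 80 down, 0 to 1 members down and 3 to 7 hypoxia targets up for the alternation.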
